A study of Rattus norvegicus with 20 samples.

Results

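Acta1, Mylpf, Atp2a1, Ckm, Eno3, Pygm and Csrp3 are genes of the contractile and energy machinery of skeletal muscle, and they were followed here in rat dorsal root ganglia, the clusters of sensory neuron cell bodies beside the spinal cord. Every probe set assigned to 1 of these 7 genes alone was taken, which gave 9 of the 8740 probe sets tested and 7 of the 4741 genes they represent. Mylpf is listed under its current symbol Myl11, and Mylpf and Pygm have 2 probe sets each. The genes were chosen with their differences between injured and sham ganglia at 14 and 21 days known, above all those after chronic constriction injury. Those after chronic constriction are given as a description. Tests of the other injury at these days are not independent of the choice.

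The ganglia came from the operated side of rats, and their total RNA was hybridised to Affymetrix arrays, 1 per sample. In chronic constriction injury (CCI) the sciatic nerve is loosely tied, and CCI ganglia were taken at 14 days (n = 3) and 21 days (n = 3). The Seltzer groups, which the labels describe as transection of the sciatic nerve, comprised 2 samples at 14 days, 3 at 21 days and 2 at 50 days, and the sham-operated groups had the same numbers at the same days. All these rats had surgery. The labels used here state no strain, sex, age or number of ganglia per sample. They also do not tell whether each sample is its own animal, and p-values therefore cover only differences between these samples, possibly technical ones.

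Skeletal muscle shortens when myosin heads pull on thin filaments of actin, and the pull is switched on by calcium that leaves the sarcoplasmic reticulum and is pumped back afterwards. Creatine kinase, glycogen phosphorylase and the muscle enolase keep ATP supplied during the work. A dorsal root ganglion contains neurons, satellite glia, Schwann cells, vessels and connective tissue but no skeletal muscle fibres, while muscles lie directly beside the spine from which it is dissected. Csrp3, also called muscle LIM protein, stands apart because it is a muscle protein that is also known from injured, regrowing sensory neurons.

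The upstream regions of 4 members are shown because the group means of these genes varied together. Each is the 250 bases before the annotated start in RefSeq, build GRCr8, and 6 of the 7 members had such an entry. Capitals mark E-boxes (CANNTG on either strand), the letters that the myogenic factors of the MyoD family bind, and in Acta1 also the CArG box, the site of serum response factor. Acta1 lies on the minus strand at chr19:68784195-68784444, Mylpf on the plus strand at chr1:191260039-191260288, Atp2a1 on the minus strand at chr1:190475411-190475660, and Ckm on the plus strand at chr1:88189211-88189460.
Acta1: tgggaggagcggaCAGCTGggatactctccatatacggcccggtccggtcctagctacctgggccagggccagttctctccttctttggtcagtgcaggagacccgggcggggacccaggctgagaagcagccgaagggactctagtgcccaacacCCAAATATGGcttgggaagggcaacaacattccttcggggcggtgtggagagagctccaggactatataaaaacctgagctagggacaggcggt
Mylpf: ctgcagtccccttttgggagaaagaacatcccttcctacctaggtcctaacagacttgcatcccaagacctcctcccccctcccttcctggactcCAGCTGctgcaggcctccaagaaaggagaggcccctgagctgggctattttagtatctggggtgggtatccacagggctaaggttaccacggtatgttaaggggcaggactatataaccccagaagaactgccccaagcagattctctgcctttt
Atp2a1: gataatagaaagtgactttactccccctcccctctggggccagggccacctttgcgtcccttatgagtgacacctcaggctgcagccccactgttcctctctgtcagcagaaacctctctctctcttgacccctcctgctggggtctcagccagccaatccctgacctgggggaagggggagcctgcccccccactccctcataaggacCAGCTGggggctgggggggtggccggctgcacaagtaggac
Ckm: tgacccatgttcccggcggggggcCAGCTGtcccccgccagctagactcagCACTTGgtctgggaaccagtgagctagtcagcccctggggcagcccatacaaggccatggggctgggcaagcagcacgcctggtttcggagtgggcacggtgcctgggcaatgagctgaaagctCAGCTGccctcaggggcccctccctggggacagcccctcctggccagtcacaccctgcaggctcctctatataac

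All 6 members with a window held at least 1 E-box, as did 65.2% of 27457 rat promoter windows of the same length. Ckm held 3, and its nearest one began 75 bases before the start. Pygm also held 3, and Acta1, Atp2a1, Mylpf and Eno3 held 1 each. A CArG box was found in the window of Acta1, 94 bases before the start, and in 1.5% of all windows. These matches describe the letters and show neither binding nor use.

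The deposited values are intensities on a linear scale that can fall below 0. A probe set was called above background on an array when its intensity was above the level that 95% of the array's negative values stay under in size. This level was 169 to 325 on 17 arrays. It was higher on CCI 21-day replicate 1 (499) and on both Seltzer arrays of 50 days (765 and 597). By that measure Acta1 was above background on 17 of 20 arrays, Ckm and Atp2a1 on 12 each, and the Mylpf probe sets on 7 and 10. Eno3 was above it on 2 arrays, and the Pygm probe sets on 0 and 1. Csrp3 was above it on none, so every one of its values is a reading within the background. The ganglion itself was plain on every array: the 13 measured markers of sensory neurons were each above background on at least 1 array, and their summed intensity ran from 24958 to 84587.

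Counted by array, 5 to 7 of the 9 probe sets were above background at 14 days after CCI, 5 on both Seltzer 14-day arrays, and 3 and 4 on the sham 14-day arrays. At 21 days the numbers were 0, 1 and 1 after CCI, 3, 4 and 2 in Seltzer ganglia, and 3, 5 and 5 in sham ganglia. At 50 days the count was 1 on each Seltzer array and 0 on both sham arrays. The share of all probe sets above background moved as well. The 14-day shares were 21.6%, 24.1% and 20.1% after CCI, 20.5% and 25.8% in Seltzer ganglia, and 21.3% and 20.5% in sham ganglia. The 21-day shares were 12.8%, 18.9% and 20.1% after CCI, 17.6%, 21.2% and 17.4% in Seltzer ganglia, and 16.3%, 21.4% and 24% in sham. Seltzer 50-day arrays had 8.94% and 11.1%, and sham 50-day arrays had 16.2% and 17.9%. The CCI 21-day array with a count of 0 had the share of 12.8% and a background level of 499. How far these shares account for the counts was not tested.

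**Figure D1:**
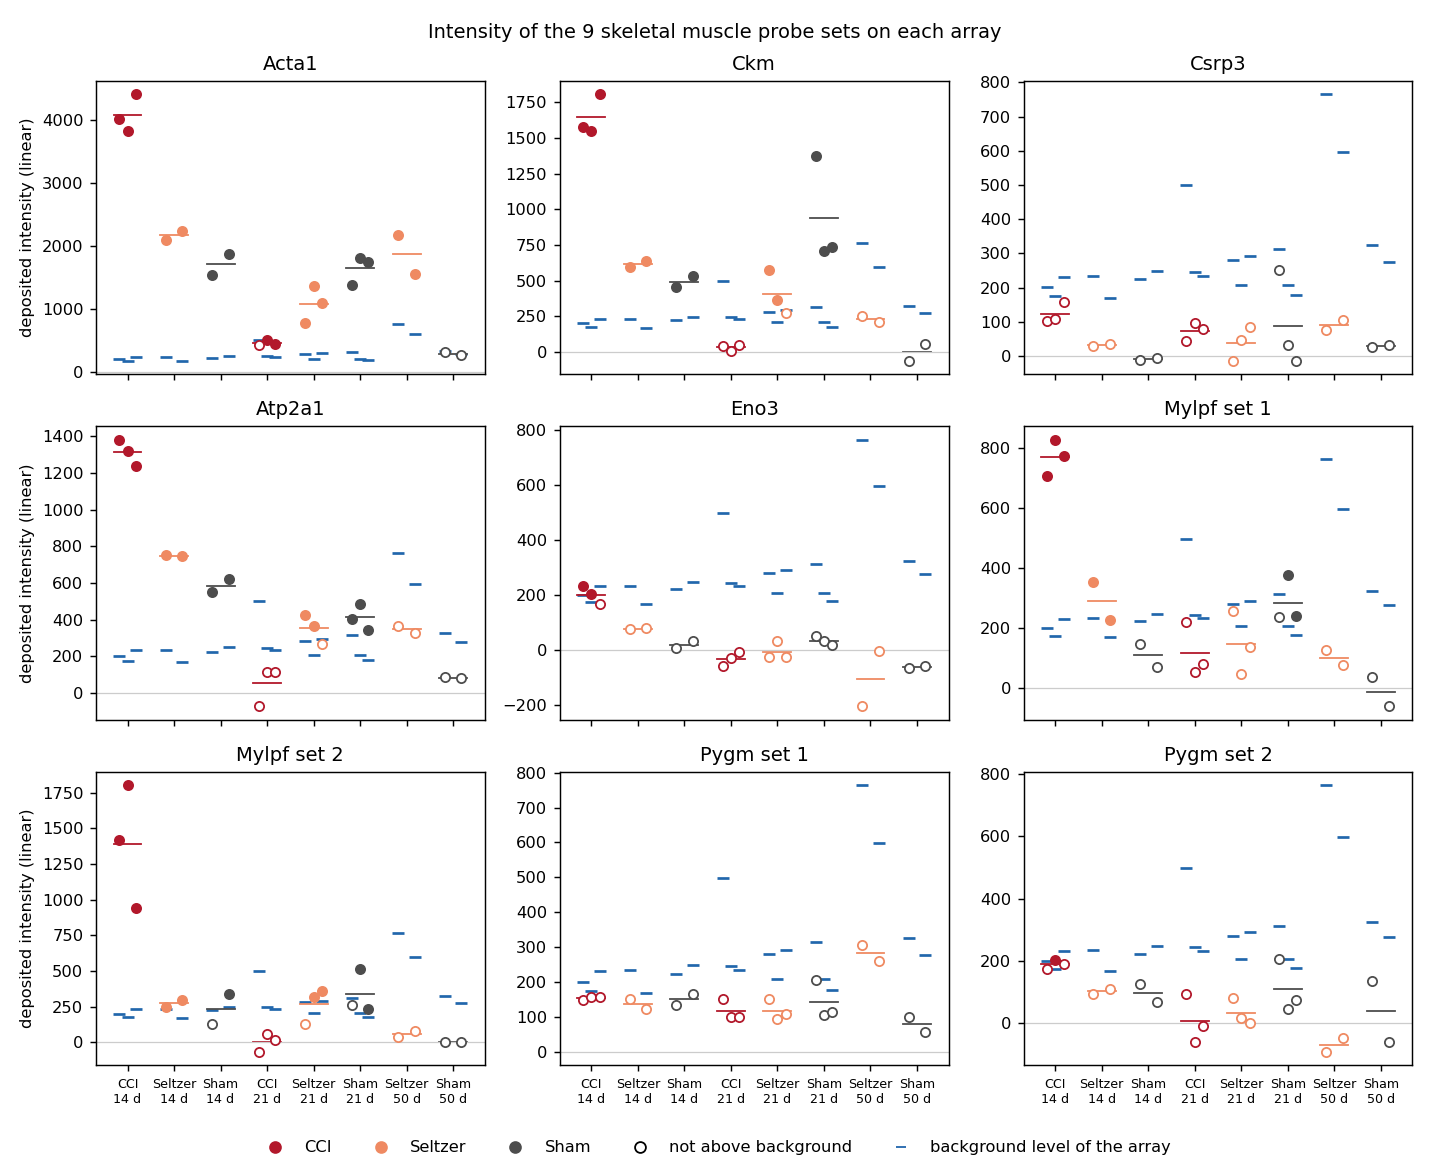
Deposited intensity (linear scale) of the 9 probe sets on each of the 20 arrays. Columns are groups by surgery and day, filled points are above the array's background level, open points are not, short blue dashes mark that level, and horizontal lines are group means. Acta1, Ckm, Atp2a1 and Mylpf stand highest at 14 days after CCI and at or under background at 50 days after sham surgery, while no Csrp3 point is filled.

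Acta1, the actin of skeletal muscle thin filaments, gave the most complete record. At 14 days its intensity was 4017, 3818 and 4406 after CCI, 2091 and 2242 in Seltzer ganglia, and 1543 and 1870 in sham ganglia. Acta1 at 21 days was 421, 497 and 434 after CCI, 780, 1364 and 1088 in Seltzer ganglia, and 1383, 1803 and 1741 in sham ganglia. CCI ganglia were thus the highest of all groups at 14 days and the lowest of their day at 21 days, and in neither case did their arrays overlap with those of sham. At 50 days Acta1 was 2173 and 1553 in Seltzer ganglia, against 312 and 262 in sham ganglia, where both values lay under the background level. Ordered by mean, CCI 14-day ganglia (4080) stood above Seltzer 14-day (2167), Seltzer 50-day (1863), sham 14-day (1707), sham 21-day (1642), Seltzer 21-day (1077), CCI 21-day (451) and sham 50-day ganglia (287). The arrays of neighbouring groups overlapped from Seltzer 14-day down to sham 21-day ganglia, and the other neighbours did not overlap. Group means varied by an SD of 1.23 on the log2 scale, against 0.23 between arrays of 1 group.

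Mylpf encodes the fast regulatory light chain of myosin. Its second probe set read 1418, 1804 and 944 at 14 days after CCI, 246 and 300 in Seltzer ganglia, and 131 and 337 in sham ganglia. The same set at 21 days read -65.1, 54.9 and 17.9 after CCI, all under background, 131, 321 and 359 in Seltzer ganglia, and 262, 514 and 236 in sham ganglia. At 50 days all 4 arrays were under background, with 37.7 and 79.9 in Seltzer and 4.04 and 3.32 in sham ganglia. The first probe set showed the same peak, with 708, 829 and 776 at 14 days after CCI and no value above 377 on any other array. Its other arrays were spread around the background level, and its groups from Seltzer 14-day down to Seltzer 50-day ganglia overlapped with their neighbours in order.

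Atp2a1 encodes SERCA1, the calcium pump of fast fibres. At 14 days it stood at 1382, 1322 and 1238 after CCI, 750 and 745 in Seltzer ganglia, and 552 and 619 in sham ganglia. The 14-day groups did not overlap, and the arrays within each lay close together. Atp2a1 at 21 days stood at -73.1, 115 and 114 after CCI, all under background, 425, 367 and 267 in Seltzer ganglia, and 404, 487 and 345 in sham ganglia. At 50 days it stood at 367 and 329 in Seltzer ganglia, which is under the raised background of those arrays, and at 88.5 and 79.1 in sham ganglia.

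Ckm, the muscle creatine kinase that regenerates ATP from phosphocreatine, followed with 1579, 1546 and 1805 at 14 days after CCI, 599 and 635 in Seltzer ganglia, and 456 and 530 in sham ganglia. Ckm at 21 days was 39.9, 8.39 and 50.8 after CCI, 574, 366 and 277 in Seltzer ganglia, and 1372, 707 and 735 in sham ganglia. At 50 days it was 256 and 209 in Seltzer ganglia, against -62.9 and 59.2 in sham ganglia, and none of these 4 arrays was above background. The order differed from that of Acta1 in that sham 21-day ganglia came second, and sham 21-day replicate 1 stood far above the other sham arrays of that day.

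Eno3, the muscle form of enolase in glycolysis, was above background only on 2 of the 3 CCI 14-day arrays, at 234 and 204, and the third read 170. Every other array lay between -203 and 80.3. Pygm, which breaks down muscle glycogen, stayed between 57.6 and 305 in its first probe set and between -90.3 and 208 in its second. The first set was highest on the Seltzer 50-day arrays (305 and 261), which were also the arrays of highest background, and the second was lowest there (-90.3 and -46.7). The Pygm probe sets thus disagreed about those arrays, and neither measured the gene above background there.

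As a description of the differences known when the genes were chosen, CCI minus sham at 14 days was 1.25 for Acta1 (SE 0.21) on the log2 scale, 2.4-fold higher. The same difference was 3.34-fold for Ckm, 2.24-fold for Atp2a1 and 6.39-fold for the second Mylpf probe set. For the first Mylpf probe set, whose sham arrays were under background, it was at least 3.27-fold, where "at least" sets the brighter group against the background level of the dimmer one. At 21 days CCI minus sham was -1.82 for Acta1 (SE 0.19), 3.63-fold lower, and Ckm was at least 2.93-fold and Atp2a1 at least 1.34-fold lower. The fit put 4 of the 9 probe sets past an adjusted p of 0.05 as higher at 14 days, beside 1.35% of all probe sets, and 3 as lower at 21 days, beside 0.389% of all. The genes were chosen on these very differences, so these counts are no test and nothing is read from them. CCI arrays did not overlap with sham for 8 of the 9 probe sets at 14 days (all higher) and for 6 at 21 days (all lower), beside 18.1% and 7.68% of all probe sets in those directions. The median difference of the 9 was 1.71 at 14 days and -1.82 at 21 days, against 0.00 over all probe sets at both.

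The Seltzer arrays were not part of the CCI differences, although the sham arrays of 14 and 21 days were shared with them. Seltzer differences from sham at 14 and 21 days were also known when the genes were chosen. Their p-values are therefore no independent test. The tests used limma on log2(intensity + 16) over all 20 arrays, with values below 0 set to 0 and p-values adjusted over 8740 probe sets. At 14 days none of the 9 probe sets was called, beside 0.206% of all probe sets, and 1 had an unadjusted p under 0.05. Acta1 differed by 0.35 (SE 0.23, adjusted p = 1), 1.27-fold higher in Seltzer ganglia, and Ckm and Atp2a1 were 1.26-fold and 1.28-fold higher, each short of the threshold. For 6 of the 9 the Seltzer arrays were higher without overlap, beside 17.9% of all probe sets. At 21 days none was called either, beside 0.378% of all, and 3 had an unadjusted p under 0.05. Acta1 then differed by -0.63 (SE 0.19, adjusted p = 0.337), 1.55-fold lower, and Ckm by -1.17 (SE 0.51, adjusted p = 0.715), 2.3-fold lower. For Acta1 and Ckm, 2 of the 9, the Seltzer arrays were lower without overlap, beside 5.46% of all. The median difference of the 9 was 0.35 at 14 days and -0.63 at 21 days, against 0.00 over all probe sets at both. Without Seltzer 21-day replicate 2, 1 probe set was called at 21 days, that of Eno3.

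At 50 days Acta1 was higher in Seltzer than in sham ganglia by 2.62 (SE 0.23, adjusted p = 8.2e-06), at least 6.14-fold. Ckm was higher by 2.83 (SE 0.62, adjusted p = 0.00863) and the first Pygm probe set by 1.69 (SE 0.31, adjusted p = 0.00274), but both were under background in both groups, so no fold is given for them. These 3 of 9 probe sets were called higher, beside 8.72% of all probe sets, and no member was called lower, beside 7.2% of all. Atp2a1 (1.87, SE 0.72, adjusted p = 0.0994) and the Mylpf probe sets (1.99 and 1.87) did not pass the threshold. Seltzer arrays lay above sham without overlap for 7 of the 9 probe sets, beside 33.4% of all, and the median difference was 1.87, against 0.00 over all. With the replicate number as a block 5 probe sets were called, 6 were called without CCI 21-day replicate 1, and 2 without Seltzer 50-day replicate 1. The call of Ckm was lost without sham 50-day replicate 1 or Seltzer 50-day replicate 1 (adjusted p = 0.0769 and 0.0544). The Acta1 difference held its direction and its call in all 29 alternatives.

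The 50-day arrays also differed in ways that no muscle gene defines. Their medians were 59.4 and 59 in Seltzer and 43.6 and 43.2 in sham ganglia, a shift of 0.34 on the log2 scale, and with each array centred on its median the Acta1 difference was 2.28 (adjusted p = 0.000514). The control signal for the middle of the GAPDH transcript was 120 and 198 on the Seltzer arrays, against 543 and 519 on the sham arrays, and 1276 to 4526 on the arrays of 14 and 21 days. Of the sensory neuron markers, 1 was called higher and 5 lower out of 13, beside 8.72% and 7.2% of all probe sets. Their part in the muscle differences at 50 days was not tested. In tissue RNA, fewer cells of a type and less RNA per cell cannot be told apart, so none of these intensities gives an amount of muscle.

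**Figure D2:**
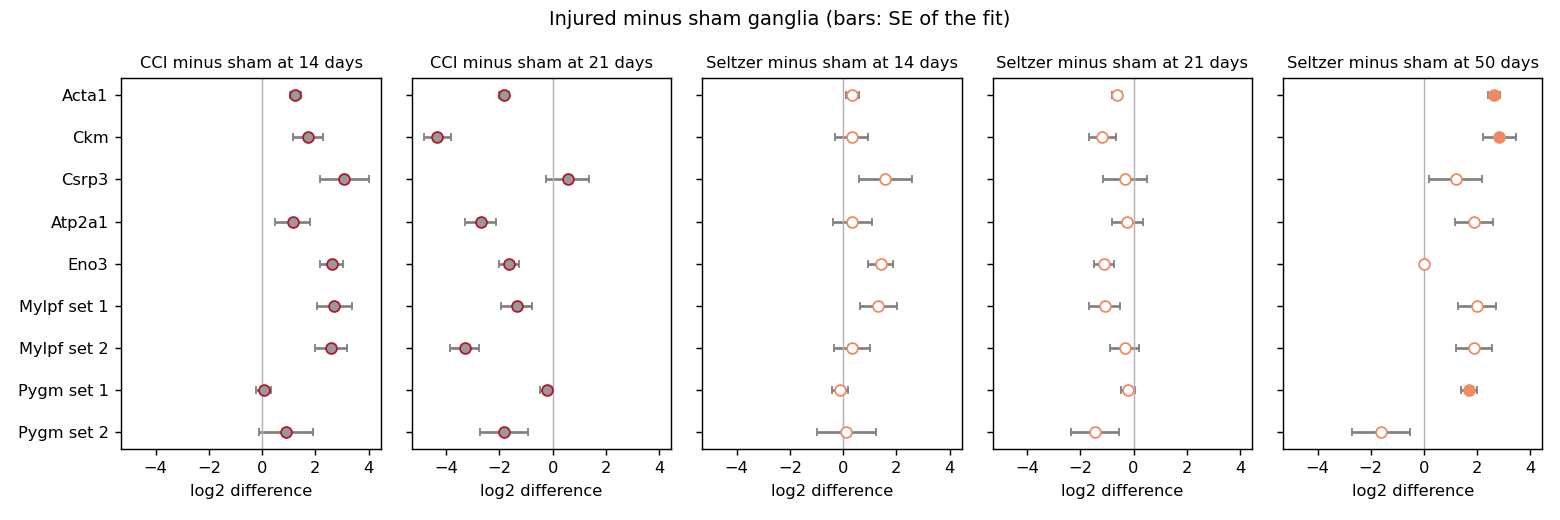
Difference on the log2(intensity + 16) scale for each probe set, injured minus sham ganglia of the same day, with bars for the SE of the fit. Filled orange points passed an adjusted p of 0.05, open points did not, and the grey-filled CCI points are a description without a test. The CCI points lie mainly right of 0 at 14 days and left of 0 at 21 days, and Acta1 at 50 days (2.62) is the Seltzer point with the smallest error among those called.

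Whether the Seltzer difference changed with the day was tested directly with an F test over 14, 21 and 50 days. It did for Acta1 (adjusted p = 6.8e-05), Ckm (adjusted p = 0.0243) and the first Pygm probe set (adjusted p = 0.0215), 3 of 9 beside 6.13% of all probe sets. For Acta1 the difference was 0.35, -0.63 and 2.62 in the order of days. The Seltzer and sham arrays of 14 and 21 days enter this test. Their differences were known when the genes were chosen, so it is not independent of that choice. Without Seltzer 50-day replicate 1 the count was 1, and Acta1 was past the threshold in all 30 alternatives.

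Within the Seltzer groups Acta1 fell by 1.03 between 14 and 21 days (SE 0.21, adjusted p = 0.0172), 2.06-fold lower at 21 days, and Eno3 fell by 2.02 (SE 0.42, adjusted p = 0.022) with all values under background. These 2 of 9 were lower, beside 1.22% of all probe sets, and Ckm and Atp2a1 were 1.59-fold and 2.16-fold lower without a call. Seltzer arrays of both days were part of differences known when the genes were chosen, so these p-values are not independent of the choice. Without either Seltzer 14-day array no probe set was called, and without Seltzer 21-day replicate 1 or 3 it was 1. Between 21 and 50 days Acta1 was higher at 50 days by 0.80 (SE 0.21, adjusted p = 0.0128), 1.75-fold, and so was the first Pygm probe set by 1.19 (SE 0.28, adjusted p = 0.00722), beside 15.9% of all probe sets. The second Mylpf probe set fell by 1.89 (SE 0.61, adjusted p = 0.0367), beside 11.5% of all. No member was called without Seltzer 50-day replicate 1, and Acta1 differed by 0.54 (adjusted p = 0.209) with arrays centred on their median. Atp2a1 and Ckm differed by 0.00 and -0.71. On the Seltzer 50-day arrays every member probe set but that of Acta1 was under background. Whether the muscle genes shared a direction in this comparison could therefore not be judged.

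Sham ganglia, which had no nerve injury, were compared between 21 and 50 days. The sham 21-day arrays were part of the CCI differences known when the genes were chosen, so a fall from that day is partly set by the choice and is not independent of it. From 21 to 50 days Acta1 fell by 2.45 on the log2 scale (SE 0.21, adjusted p = 1.62e-05), at least 5.45-fold. For Ckm the fall was at least 2.99-fold (difference -4.71, SE 0.57, adjusted p = 0.000211). The Mylpf probe sets fell by 3.34 (adjusted p = 0.00704) and by 4.08 (adjusted p = 0.00114), and Eno3 fell by 1.65 (adjusted p = 0.0332). For the first Mylpf probe set the bound against the 50-day background fell under 1, and for the second it was 1.06-fold. Eno3 was under background on the sham arrays of both days, with its 50-day values below 0. Its call was lost in 9 of 30 alternatives. These 5 of 9 probe sets were called lower, beside 4.82% of all probe sets, and 7 had non-overlapping, lower arrays at 50 days, beside 22.3% of all. Their median difference was -2.09, against -0.00 over all probe sets. Atp2a1 was at least 1.36-fold lower (adjusted p = 0.0769), and Csrp3 differed by -0.34 (SE 0.92, adjusted p = 0.996). Without sham 50-day replicate 2 the count was 3, while Acta1 was called in all 30 alternatives. The GAPDH control for the 3' end was 1543 and 1480 at 50 days, against 4518, 3512 and 3534 at 21 days. Of the Schwann cell markers 2 of 8 fell (Mbp and Mal), beside 4.82% of all probe sets. The part of either in the result was not tested.

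Between groups Acta1, Ckm, Atp2a1, Mylpf and Eno3 varied together, and Csrp3 and the Pygm probe sets did so less or not at all. Over the 8 group means, Pearson's r of Acta1 was 0.94 with Ckm, 0.95 with Atp2a1, 0.86 and 0.89 with the Mylpf probe sets, 0.78 with Eno3, 0.66 and 0.53 with the Pygm probe sets, and 0.18 with Csrp3. The first Pygm probe set had an r of 0.12 with Eno3, 0.38 and 0.29 with the Mylpf probe sets and -0.22 with the second Pygm probe set. These are descriptions, because the genes were chosen on some of the same groups and because all values of an array share its background. Inside the groups the picture was different: over the 20 arrays with group means removed, r of Acta1 was -0.47 with Ckm, 0.12 with Atp2a1, -0.35 and 0.41 with the Mylpf probe sets and 0.41 with Eno3. Likeness to Acta1 was thus high between groups and low or mixed between arrays of 1 group. Without the replicate 1 arrays of Seltzer and sham ganglia at 21 days, left out after their values were seen, the values within groups were -0.25, 0.31, -0.15, 0.13 and 0.49 in the same order.

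The proportion of Ckm and Atp2a1 to Acta1 was followed on the 12 arrays where all were above background. Taking each gene's ratio to Acta1 relative to its mean in sham 14-day ganglia, Ckm stood at 1.36 to 1.42 after CCI and at 0.98 and 0.991 in Seltzer ganglia of 14 days. It stood at 2.55 and 0.927 on Seltzer 21-day replicates 1 and 2, and at 3.43, 1.36 and 1.46 on the sham 21-day arrays. Atp2a1 ran from 0.576 to 1.58, with 0.999, 1.01 and 0.816 at 14 days after CCI. Acta1 itself spanned 5.65-fold over those 12 arrays. Without the same 2 arrays of 21 days, Ckm ran from 0.927 to 1.46 while Acta1 spanned 3.23-fold. These arrays also had the highest single intensities of all arrays, 23670 and 26055.

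**Figure D3:**
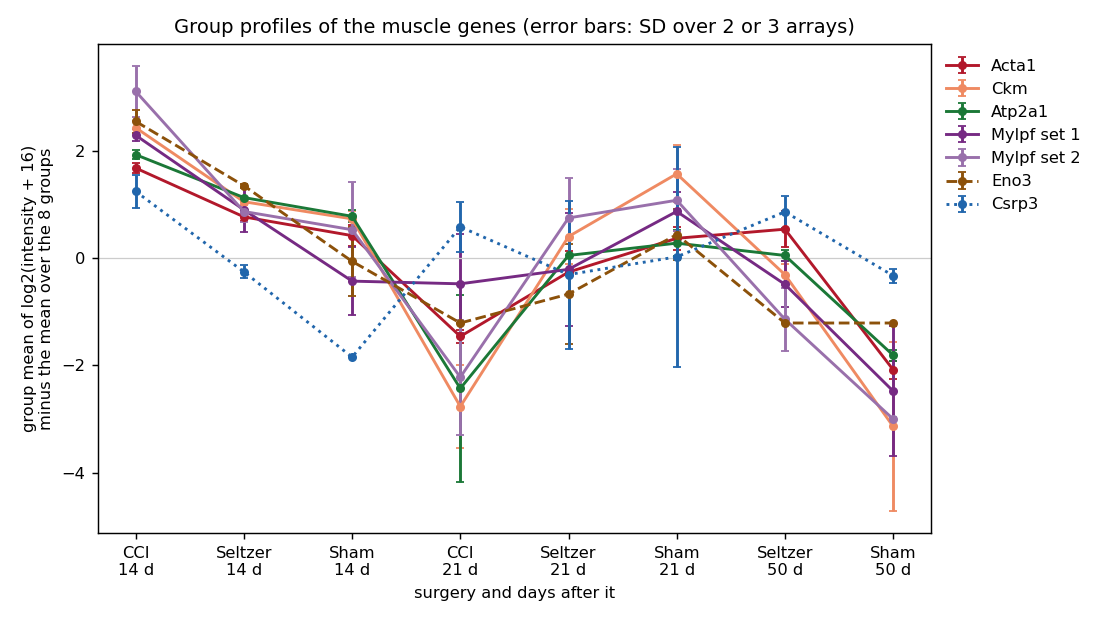
Group mean on the log2(intensity + 16) scale minus the mean over the 8 groups, for 7 of the probe sets, with bars for the SD over 2 or 3 arrays. Acta1, Ckm, Atp2a1 and Mylpf share a peak at 14 days after CCI and low points at 21 days after CCI and 50 days after sham surgery. Csrp3 (dotted) lies above its own mean at the first of these low points and slightly below it at the second. Csrp3 was not above background on any array, and Eno3 only on 2 CCI 14-day arrays.

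The genes most like the muscle members were looked for among 1316 other genes that were above background on at least 6 arrays. Tpm1, the tropomyosin of fast muscle and of other cells, came first (r = 0.959 over 20 arrays with the mean profile of the 6 members other than Csrp3). Myh4, the heavy chain of the fastest fibres, followed at 0.85, and Tnnc2, the calcium sensor of fast thin filaments, at 0.842. H19, an imprinted noncoding RNA, followed at 0.794, Myoc, a secreted glycoprotein, at 0.767, Cnmd, a cartilage and tendon protein, at 0.758, Cmtm6, a membrane protein, at 0.726 and Myl1, the essential light chain of fast myosin, at 0.716. Tpm1, Myh4, Tnnc2 and Myl1, 4 of the 8, were in the list of fast contractile genes.

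Tpm1 averaged 2955 ± 273 after CCI (n = 3), 1898 ± 150 in Seltzer ganglia (n = 2) and 1552 ± 53.8 in sham ganglia (n = 2) at 14 days. The 21-day means were 632 ± 234 after CCI, 1501 ± 201 in Seltzer ganglia and 1851 ± 297 in sham ganglia (SD, n = 3 each). The 50-day means were 1004 ± 57.2 in Seltzer ganglia and 558 ± 42 in sham ganglia (SD, n = 2 each), a difference of 0.83 (SE 0.25, adjusted p = 0.0423). Myh4 at 50 days averaged 1202 ± 260 in Seltzer ganglia, against 213 ± 30.2 in sham ganglia (SD, n = 2 each), at least 3.97-fold higher (adjusted p = 0.00344). Both genes were picked for likeness to the muscle members over all arrays, those of 50 days included. That they shared the 50-day difference of Acta1 is thus partly set by the choice, and these p-values are no independent test of it. Myh4 differed from Acta1 in being highest in Seltzer rather than CCI ganglia at 14 days (2306 ± 36.3 against 1968 ± 217).

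**Figure D4:**
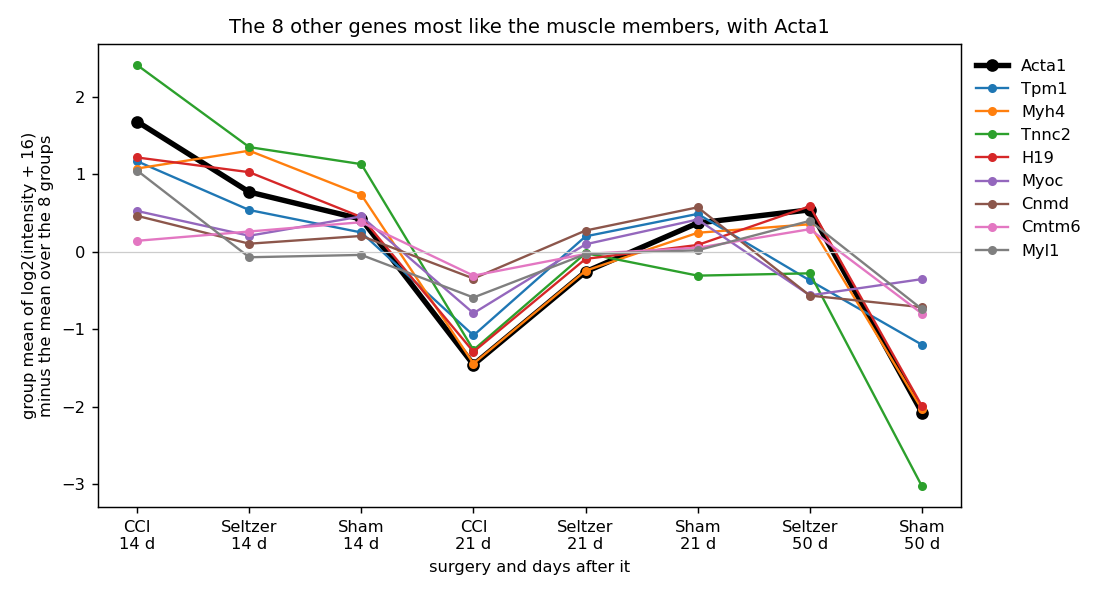
Group means of Acta1 (thick line) and of the 8 other genes with the most similar profiles, on the log2(intensity + 16) scale minus the mean over the 8 groups. Tpm1, Myh4, Tnnc2, H19, Cmtm6 and Myl1 share the low points of Acta1 at 21 days after CCI and 50 days after sham surgery, while Myoc and Cnmd are low in Seltzer as well as sham ganglia at 50 days. At those low points Tnnc2, H19, Cmtm6 and Myl1 were above background on no array, nor was Myh4 on the sham 50-day arrays.

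The other skeletal muscle genes on the array, 61 in 5 lists, did not all follow. In the fast list 6 of 15 were above background on no array, and in the slow list 6 of 10. In the calcium, metabolic and junction lists it was 6 of 11, 6 of 13 and 10 of 12. The median differences given here include these undetected genes and say little about the detected ones. At 14 days after CCI none of the 61 was called against sham, beside 2.78% of all probe sets, and their median difference was 0.00, the same as over all probe sets. At 21 days after CCI 4 of the 61 were called lower (Tpm1, Pvalb, Ldb3 and Mybpc1), beside 0.389% of all probe sets. Of these, Ldb3 and Mybpc1 were not above background in those groups, and the median difference of the 61 was 0.03. Pvalb was above background on 17 arrays. It averaged 470 ± 18 in sham 50-day ganglia (SD, n = 2), where both Acta1 values were under background. In Seltzer ganglia none was called at 14 or 21 days, beside 0.206% and 0.378% of all probe sets. At 50 days 11 were higher and 2 lower than in sham, beside 8.72% and 7.2% of all probe sets, and only Myh4, Tpm1 and Cox6a2 of the 11 were above background on an array of those groups. From 21 to 50 days 16 were higher and 3 lower in Seltzer ganglia, beside 15.9% and 11.5% of all, and 13 of the 16 were not above background there. Over the same days 7 fell in sham ganglia, beside 4.82% of all, and 1 was higher, beside 2.64% of all. This was Tpm3, a tropomyosin of slow fibres and of other cells (527 ± 221 at 21 days, n = 3, and 3528 ± 363 at 50 days, n = 2).

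The 15 fast contractile genes summed to 8197 to 9214 after CCI, 6289 to 6496 in Seltzer ganglia and 4630 to 5208 in sham ganglia at 14 days. They summed to 1581 to 2691 after CCI, 3592 to 3795 in Seltzer ganglia and 4344 to 4826 in sham ganglia at 21 days, and to 3358 to 4113 in Seltzer ganglia and 1659 to 1777 in sham ganglia at 50 days. The sums do not overlap between groups of the same day, and their order is that of Acta1 at each day. Most of the fast sum at 14 days after CCI came from Tpm1, Myh4 and Tnnt3, while Myh1, another fast heavy chain, averaged 149 there, against 316 in sham ganglia. The 10 slow contractile genes, of which 6 were above background on no array, summed to 2191 to 2579 after CCI, 1136 to 1238 in Seltzer ganglia and 1477 to 1760 in sham ganglia at 14 days. Their 21-day sums were 2317 to 3097 after CCI, 1562 to 2533 in Seltzer ganglia and 1358 to 1957 in sham ganglia, so CCI ganglia were not the lowest as they were for Acta1. At 50 days they summed to 6839 to 7661 in Seltzer ganglia and 4572 to 5118 in sham ganglia, most of it Tpm3, in the same order as Acta1. The difference between the lists was not tested. Myod1 and Myog, the factors that switch on the muscle programme, were not above background on any array, nor were 8 others of the 12 regulators and junction genes.

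The brightest genes of each list did not all have the group order of Acta1. After Tpm1 and Myh4, the fast list was led by Tnnt3, a troponin of fast fibres, which averaged 1274 after CCI, 462 in Seltzer ganglia and 339 in sham ganglia at 14 days, and 335, 472 and 620 in the same order at 21 days. At 50 days Tnnt3 averaged 79.4 ± 40.6 in Seltzer ganglia, under the background of those arrays, and 258 ± 215 in sham ganglia (SD, n = 2 each). These means were the other way round from Acta1, but the limma difference did not pass the threshold (-1.33, SE 0.65, adjusted p = 0.199). The slow list was led by Tpm3, Myl3 and Myh7, and Myl3, a slow myosin light chain, averaged 233, 161 and 177 at 14 days and 320, 170 and 269 at 21 days in CCI, Seltzer and sham ganglia. The calcium list was led by Atp2a2, the calcium pump of slow muscle and most other cells, by Cav3 and by Pvalb. Atp2a2 averaged 985, 1260 and 1176 in CCI, Seltzer and sham ganglia at 14 days and 921, 1547 and 1397 at 21 days, and so was not highest after CCI at 14 days. Cav3, a caveolin of muscle membranes, averaged 340, 272 and 260 at 14 days and 459, 377 and 375 at 21 days in the same order, highest after CCI at both days. The metabolic list was led by Pfkm, Phkg1 and Aldoa, and Pfkm, a phosphofructokinase, averaged 910, 944 and 1024 at 14 days and 772, 1105 and 1254 at 21 days in the same order. The junction list was led by Chrng, Ncam1 and Chrne, and Chrne was above background on no array. Chrng, a subunit of the acetylcholine receptor, averaged 358, 328 and 404 at 14 days and 577, 399 and 323 at 21 days in CCI, Seltzer and sham ganglia. At 21 days CCI means were thus the lowest of the day for Tnnt3, Atp2a2 and Pfkm, and the highest for Cav3, Chrng and Myl3, while Phkg1, a phosphorylase kinase subunit, averaged 821, 938 and 862. None of these genes was called between CCI and sham ganglia at 21 days, beside 0.927% of all probe sets. The SD after CCI (n = 3) was 222 for Tnnt3, 282 for Atp2a2 and 23 for Pfkm. It was 206 for Cav3, 257 for Chrng and 110 for Myl3, so the order of these means is uncertain.

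Of other tissues that could come with a ganglion, blood genes were higher after CCI than in the other groups of 14 days, though not than in the groups of later days. The 4 blood genes summed to 8628 to 11375 after CCI, 5383 to 6426 in Seltzer ganglia and 5720 to 7794 in sham ganglia at 14 days, so that the CCI arrays stood above the others. At 21 days they summed to 8650 to 9545 after CCI, 7462 to 9094 in Seltzer ganglia and 8812 to 11465 in sham ganglia, which overlap, and all 4 were above background on some array. At 50 days they summed to 9628 to 10270 in Seltzer ganglia and 8976 to 9559 in sham ganglia. Of the 4 blood genes 1 was called higher, beside 8.72% of all probe sets. The summed intensity of 10 connective tissue genes overlapped between CCI and sham ganglia at 14 days (15712 to 17259 against 11569 to 16450) and at 21 days (13442 to 14546 against 12664 to 16771). Of the smooth muscle genes 5 of 6, and of the fat genes 6 of 8, were above background on no array. No gene of these 4 lists was called between CCI and sham at 14 or 21 days, beside 2.78% and 0.927% of all probe sets. The part of blood in the muscle differences was not tested.

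Csrp3 was read against muscle and against injury. Its intensity was 101, 108 and 159 at 14 days after CCI, 29.4 and 35.1 in Seltzer ganglia, and -13.5 and -6.12 in sham ganglia. Csrp3 at 21 days was 44.4, 95.2 and 79.6 after CCI, -15.1, 47.5 and 83.8 in Seltzer ganglia, and 250, 30.8 and -14.9 in sham ganglia. At 50 days it was 74.5 and 105 in Seltzer ganglia, against 27.1 and 33.1 in sham ganglia. The highest value, 250, came from a sham array and reached 79.8% of that array's background level. Injured arrays lay above sham without overlap at 14 days after both injuries and at 50 days, as did 18.1%, 17.9% and 33.4% of all probe sets in those comparisons, so this is common among groups of 2 or 3 arrays. At 21 days they overlapped, and the sham arrays themselves ranged from -14.9 to 250.

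By the fit, Csrp3 was 3.09 higher after CCI at 14 days (SE 0.92), which is a description, and 0.56 higher at 21 days (SE 0.82). Seltzer minus sham was 1.59 at 14 days (SE 1.01, adjusted p = 1), -0.33 at 21 days (SE 0.82, adjusted p = 1) and 1.19 at 50 days (SE 1.01, adjusted p = 0.52). None of the Seltzer differences passed the threshold, and the F test over days gave an adjusted p of 0.665. The 21-day difference hung on single arrays: it was 0.77 without sham replicate 1, 0.45 without Seltzer replicate 1, and 1.54 (adjusted p = 0.25) without both and CCI replicate 1 of that day, a choice made after seeing the data. In the order of group means, CCI 14-day ganglia (123) were followed by Seltzer 50-day, sham 21-day, CCI 21-day, Seltzer 21-day, Seltzer 14-day and sham 50-day ganglia (30.1), each overlapping with its neighbour, and sham 14-day ganglia (-9.81) stood below.

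The axon injury genes show what an injury pattern looked like on the same arrays. Atf3, a transcription factor switched on in neurons whose axons are damaged, read 852, 727 and 876 at 14 days and 933, 817 and 865 at 21 days after CCI. In Seltzer ganglia it read 689 and 456 at 14 days, 661, 508 and 540 at 21 days, and 320 and 350 at 50 days, and in sham ganglia 105 to 183 on the 7 arrays. Every injured array was above every sham array, at both days of CCI alike, so Atf3 did not share the opposite directions of Acta1 at 14 and 21 days. The Seltzer 50-day and all sham values of Atf3 were under background. Npy, neuropeptide Y, averaged 2733 ± 148 at 14 days and 2234 ± 350 at 21 days after CCI (SD, n = 3 each) and at most 35.5 in sham ganglia. Gal, galanin, averaged 1418 ± 77.6 and 1307 ± 78.3 at those days after CCI and at most 68.9 in sham ganglia. Cacna2d1, a calcium channel subunit, averaged 3553 ± 414 and 3974 ± 760 after CCI and 401 to 1263 in sham ganglia. Gap43, a growth cone protein, averaged 2625 ± 258 and 2796 ± 242 after CCI and 1094 to 1247 in sham ganglia. Gadd45a, a stress response gene, averaged 314 ± 85.1 and 569 ± 225 after CCI and 48.2 to 334 in sham ganglia.

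Muscle and injury genes parted in CCI ganglia of 21 days, with low Acta1 (421, 497 and 434) and high Atf3 (933, 817 and 865). There Csrp3 read 44.4, 95.2 and 79.6, inside the range of the sham arrays of that day. Over all 20 arrays r of Csrp3 was 0.16 with Acta1 and 0.05 with Ckm and Atp2a1, and 0.42 with Atf3, 0.43 with Npy, 0.27 with Gal, 0.34 with Cacna2d1, 0.24 with Gap43 and -0.10 with Gadd45a. These are weak values of readings under background, and they set Csrp3 with neither pattern.

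Arrays of 1 group were then compared with group means removed, which asks whether Csrp3 varied with muscle or with injury genes among like samples. Over 19 relations, 8 with the other member probe sets and 11 with detected axon injury genes, Pearson's r ran from -0.36 to 0.43 for the members and from -0.66 to 0.39 for the injury genes. By exact two-sided permutation of arrays within groups none passed the threshold after adjustment over the 19, none of the Pearson values had an unadjusted p under 0.05, and the smallest adjusted p was 0.713. Spearman's rho with the first Mylpf probe set was -0.60 (exact permutation p = 0.0173, adjusted p = 0.328). Leaving out the 2 arrays farthest from the median moved r for muscle and injury genes alike. It was then 0.57 with Acta1, 0.69 with Gap43, 0.53 with Vgf, -0.03 with Gal, and -0.64 and -0.63 with the Pygm probe sets, against 0.06, -0.24, -0.25, -0.66, 0.14 and -0.14 over all 20 arrays. No relation of Csrp3 was detectable at these intensities.

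**Figure D5:**
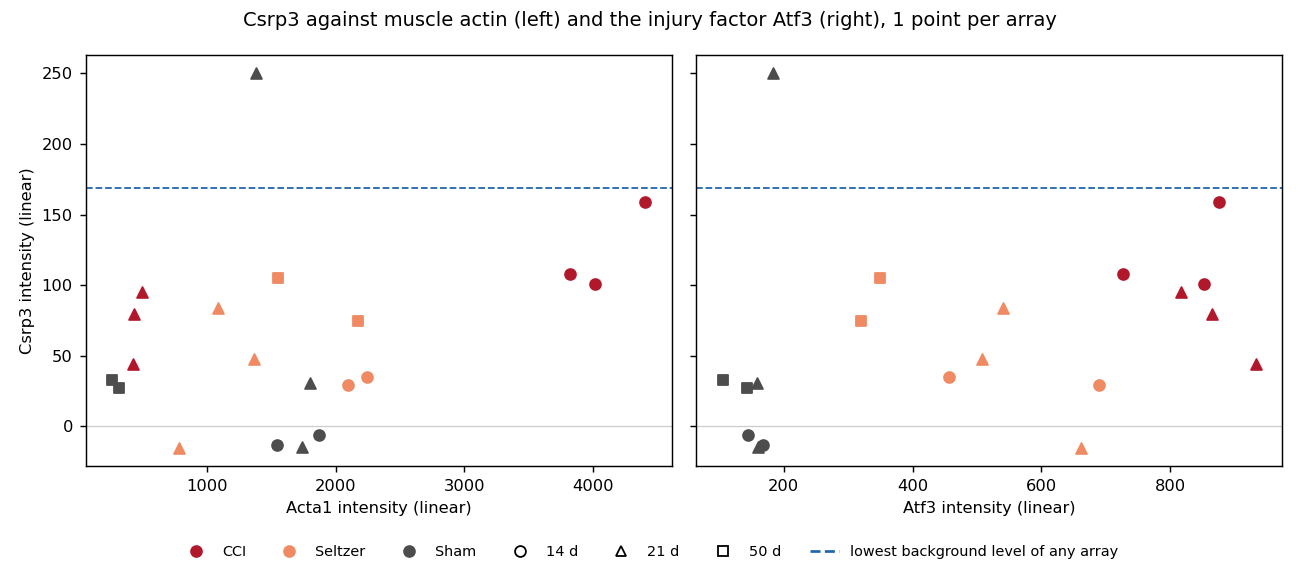
Csrp3 intensity on each of the 20 arrays against Acta1 (left) and Atf3 (right), all on the deposited linear scale. Colours give the surgery and shapes the day, and the dashed line is the lowest background level of any array (169). The points follow no line in either panel, and the highest, 250, is a sham 21-day array whose own background level was 314.

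Among the 1316 genes above background on at least 6 arrays, those with the most similar profile to Csrp3 over the 20 arrays were Prdx6, an antioxidant enzyme (r = 0.659), Acvr2b, an activin receptor (0.634), Ptgds, which makes prostaglandin D2 (0.62), and Ifitm3, an interferon-induced membrane protein (0.609). Grk6, Txnip, Pdlim1 and Coro1b followed at 0.538 to 0.568. No contractile gene and no axon injury gene was among these 8. Of the 15 axon injury genes measured only 11 were above background on enough arrays to appear. The same limit kept out many contractile genes. Prdx6 averaged 711 at 14 days after CCI, 677 in Seltzer and 524 in sham ganglia, and 717, 676 and 596 in the same order at 21 days.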

How the data were processed

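The authors deposited intensities of 8799 probe sets for each sample, unlogged and partly below 0. How they were scaled and background-corrected, and with which software, is not given in the sources used here. Without 59 controls of the array, 8740 probe sets were tested. Of these 7017 had 1 gene symbol, 297 several and 1426 none, after symbols in the platform's probe table were updated by Entrez ID to the RefSeq annotation.

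Negative values were raised to 0, and log2(intensity + 16) was used. A mean per group was fitted with limma 3.58.1 (lmFit and eBayes, R 4.3.3) on 20 arrays with 12 residual degrees of freedom. Tests were two-sided, with Benjamini-Hochberg adjustment over the 8740 and a threshold of 0.05. A fold is a ratio of geometric mean intensities. It is a lower bound against the background level where no array of the dimmer group exceeded that level, and is not given where both groups were below it or the bound fell under 1. The number of arrays limits the precision, and log2 differences near background depend on the number added. The fit was tested on simulated data. Figures were drawn with matplotlib 3.10.9.

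The members, gene lists and tests were chosen with earlier results of these data known. The rule for names took all member probe sets, the 8 other genes most like the 6 muscle members and the 8 most like Csrp3, the 3 brightest genes of each muscle list, and 6 axon injury genes. Genes behind a count of 5 or fewer, and Cox6a2, Myod1 and Myog, were named after their values were seen. A listed gene with several probe sets was read from the brightest. Deviations from group means of the same replicate number correlated at 0.299, 0.226 and 0.11 between Seltzer and sham arrays at 21 days, all above 0.1. Between CCI and sham arrays at 21 days the values were 0.0606, 0.0881 and 0.0931. Arrays of unlike number were not compared, so this does not show that the numbers are pairs. The main fit took arrays as unpaired, and the replicate block shared its effects across all 8 groups. Some CCI labels call the number a lot batch and do not say what the lot was.

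Alternatives were quantile normalization, median-centred arrays, 1 or 64 as the pseudocount, a filter on dim probe sets, a fit of the compared groups alone, a replicate block, array weights, robust eBayes with a trend, a fit without the 50-day arrays, and each array left out. Leaving out the 21-day replicate 1 arrays together was chosen after seeing the data.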

Additional observations from a re-analysis of the deposited data

Results flagged for a closer look

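For 6 of the 9 probe sets the CCI difference had opposite directions at 14 and 21 days on every array. On the log2 scale, the 21-day difference from sham minus the 14-day difference was -3.08 for Acta1, -6.04 for Ckm, -3.86 for Atp2a1, -4.26 for Eno3, -4.06 for the first Mylpf probe set and -5.88 for the second. For these 6, at 14 days all CCI arrays were above all sham arrays, as for 18.1% of all probe sets. At 21 days all were below, as for 7.68% of all probe sets. The share of all probe sets with both was not computed. Csrp3 and the Pygm probe sets did not share this: at 21 days their CCI and sham arrays overlapped. This change of direction was not tested, because the genes were chosen with it known.

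The Seltzer difference from sham changed with the day for 3 probe sets by limma's F test over 14, 21 and 50 days. The adjusted p was 6.8e-05 for Acta1, 0.0243 for Ckm and 0.0215 for the first Pygm probe set. At 50 days Ckm and Pygm were under background in both groups. The differences at 14 and 21 days that enter this test were known when the genes were chosen.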

How the results depend on the processing

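Of 2419 alternatives for single member probe sets, 2243 kept direction and side of the threshold, 90 lost a call, 48 gained one, and 38 changed sign with neither value past the threshold. No called value changed sign. Counts of member probe sets past the threshold follow. Seltzer minus sham at 50 days had 3 calls, 5 with the replicate block, and 2 to 6 with single arrays left out. At 21 days it had 0, and 0 to 1 with single arrays left out. The F test had 3, 5 with array weights, 5 with the 21-day replicate 1 arrays left out together, and 1 to 4 with single arrays left out. Seltzer 21 minus 14 days had 2, 1 with a pseudocount of 1, with arrays centred on their median, with a filter on dim probe sets or without the 50-day arrays, 0 with only the groups compared, and 0 to 3 with single arrays left out. Seltzer 50 minus 21 days had 3, 0 with only the groups compared, and 0 to 3 with single arrays left out. Sham 50 minus 21 days had 5, 3 with only the groups compared, and 3 to 6 with single arrays left out. CCI minus sham at 14 days had 4, 1 with a pseudocount of 1, 7 with array weights, and 0 to 5 with single arrays left out (0 without sham 14-day replicate 1, 2 without each of 11 others). At 21 days it had 3, 1 with only the groups compared, and 3 to 4 with single arrays left out. These CCI counts are a description, as the genes were chosen on them. The causes were not tested, though fewer arrays leave fewer degrees of freedom. The replicate block changed no other count by more than 1.5 times. The 19 relations of Csrp3 had 0 past the threshold in all 26 alternatives. A group reduced to 1 array borrows its spread from the remaining groups. Signal over background limits Csrp3, Pygm and Eno3 on nearly all arrays, every member on the sham 50-day arrays and every member but Acta1 on the Seltzer 50-day arrays.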
